A study of Mus musculus with 380 samples.

Results

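Ctla4, Cd28 and Icos, which encode the receptors CTLA-4, CD28 and ICOS, were followed across tumour-infiltrating T cells. The 3 genes were chosen by name, of 23420 genes in the deposited expression table, and all 3 were present in it. They were read in the single cells of 4 plates that had at least 1000 genes above 1 FPKM (sequenced fragments scaled to transcript length and to the library total), and in 4 population wells. They were also read by detection of Foxp3 in CD4 cells and of Havcr2 in CD8 cells. A gene is called detected in a cell above 1 FPKM.

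The cells came from B16F10 melanomas, a transplantable tumour line, grown in C57BL/6 mice. One group of plates carries the wild type (WT) label and the other the label IL27raKO, a knockout of a chain of the interleukin-27 receptor, here called KO-labelled. Every genotype was sampled on 1 CD8 and 1 CD4 plate, and each plate was made up of 94 single cells and 1 population well, profiled by Smart-seq2. The titles give 1 mouse code per genotype, so a plate is 1 sample, no test between plates was possible, and genotype cannot be told apart from plate or animal. The title of the WT CD4 plate carries p2 and those of the other plates p1, a code that the labels do not explain. The treatment text of the labels speaks of CD8+ cells alone.

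CD28 and its relatives are immunoglobulin-family receptors that adjust the strength of T cell activation. CD28 is carried by resting T cells and gives the co-stimulatory signal when it meets CD80 or CD86 on an antigen-presenting cell. CTLA-4 binds the same ligands more tightly, competes with CD28 and restrains the response. It is induced by activation and is held at high level by regulatory T cells. ICOS is also induced by activation, binds its own ligand ICOSL, and is known for its part in helper and regulatory T cells.

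After the filter, 72 WT and 80 KO-labelled cells remained of the CD8 plates, and 79 WT and 73 KO-labelled cells of the CD4 plates. Their median numbers of detected genes were 3167.5, 2507.5, 2045 and 2218 in this order, and the wells held 10450 to 10946 genes. Cd4 was detected in 84.9% and 89.9% of the cells of the CD4 plates, and Cd8a in 84.7% and 90% of those of the CD8 plates. Cd4 on the CD8 plates and Cd8a on the CD4 plates were detected in at most 5.56% of cells. With Cd8b1 counted as well, Cd8a or Cd8b1 passed 1 FPKM in 34.2% (WT) and 31.5% (KO label) of CD4 cells. The summed level of Cd8a and Cd8b1 had a median of 0 FPKM on both CD4 plates. Il27ra, the targeted gene, was still found at 61.3% (KO label) against 65.3% (WT) of CD8 cells, and at 47.9% against 43.04% of CD4 cells. Its wells were lower with the KO label, at 85.3 against 157.02 FPKM (CD8) and 72.7 against 243.44 FPKM (CD4). Cells with at least 3 of 8 cell cycle genes made up 40.3% of WT CD8 cells and 6.25% to 7.59% of the other plates. Cells with at least 3 melanoma genes, or at least 3 of the dendritic and macrophage genes, numbered 8, 3, 3 and 5 in the order above. Every comparison of detection was also made without them. At least 3 of 5 natural killer cell genes were detected in 2, 5, 0 and 0 cells, and at least 3 of 6 B cell genes in 0 cells of all 4 plates.

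The 3 genes are neighbours on mouse chromosome 1, all on the plus strand, in the order Cd28, Ctla4 and Icos. In GENCODE M21 on GRCm38, the build that mm10 names, Cd28 (ENSMUSG00000026012.2) spans 60716800 to 60773359. Ctla4 (ENSMUSG00000026011.13) spans 60887000 to 60915832 and Icos (ENSMUSG00000026009.14) spans 60977927 to 61000320. The gap between Cd28 and Ctla4 is 113.6 kb and that between Ctla4 and Icos 62.1 kb. The flanking gene Raph1, which encodes a regulator of the actin cytoskeleton, passed 1 FPKM in 7.59% to 17.8% of a plate's cells. On the other side, the noncoding gene 9530026F06Rik was detected in 2.53% to 8.75%. The 3 receptor genes were each detected in 40% to 86.3%, well above both flanking genes.

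RefSeq's table of promoters on GRCm38.p6 gave an entry for Ctla4, the member that differed most with Foxp3. Its 250 bases before the RefSeq start, chr1:60908775-60909024 on the plus strand, lie inside the GENCODE span given above, which begins upstream of the RefSeq start. They are shown with matches to 2 short motifs in capitals, the forkhead core AAACA and the NFAT and Rel core GGAAA, on either strand.
Ctla4 promoter: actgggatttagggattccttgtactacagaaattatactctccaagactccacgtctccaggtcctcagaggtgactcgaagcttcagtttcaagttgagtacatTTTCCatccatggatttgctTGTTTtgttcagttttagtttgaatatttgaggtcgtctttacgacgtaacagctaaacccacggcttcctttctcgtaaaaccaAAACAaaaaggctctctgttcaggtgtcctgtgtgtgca
The forkhead core, the kind of site that Foxp3 and its relatives bind, matched 2 times, 1 on each strand, and the plus strand match lies 39 bases before the start. The NFAT and Rel core matched 1 time, on the minus strand. None of these matches overlaps another. Both motifs are short and common: of 32851 promoter windows of this length, 46.4% hold the forkhead core and 55.6% the NFAT and Rel core. The letters TGACTCA of an AP-1 site (held by 4.46% of windows) and the letters TATAAA (held by 12.4%) were not in this window on either strand.

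Ctla4, the inhibitory receptor, had its highest levels on the CD4 plates. Its FPKM ran from 0 through a median of 157.5 to 1584 in WT CD8 cells, and from 0 through a median of 0 to 1530 in KO-labelled CD8 cells. In CD4 cells with the WT label it ran from 0 through 330.9 to 4041, and in KO-labelled CD4 cells from 0 through 586 to 16837. The ranges overlap because every plate held cells at 0, but the highest CD8 cell lay well below the highest CD4 cells. Ctla4 was detected in 56.9% of WT CD8 cells (exact 95% interval 44.7 to 68.6), 40% of KO-labelled CD8 cells (29.2 to 51.6), 65.8% of WT CD4 cells (54.3 to 76.1) and 67.1% of KO-labelled CD4 cells (55.1 to 77.7). These Clopper-Pearson intervals cover counting error between cells of 1 plate and nothing else. In the order of shares, neighbouring plates overlapped in their intervals, while the lowest plate, KO-labelled CD8, did not overlap either CD4 plate.

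Cells with Ctla4 also differed in how much they held. Among cells with Ctla4 detected, the median was 391 FPKM (WT) and 566 FPKM (KO label) on the CD8 plates, and 1073 and 1721 FPKM on the CD4 plates. The plates therefore differed more in the level per positive cell than in the share of positive cells. The population wells gave 399, 358.25, 1781 and 2526 FPKM in the same order, again with both CD4 wells above both CD8 wells. In such a well, fewer cells of a type and less RNA per cell cannot be told apart. The mean of KO-labelled CD4 cells, 1492 FPKM, was 1278 without its highest cell, still above the 785 of WT CD4 cells.

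Cd28, the co-stimulatory receptor of resting T cells, was the most evenly spread of the 3 genes. Its FPKM ran from 0 through a median of 47.03 to 484 in WT CD8 cells, and from 0 through 123.8 to 766 in KO-labelled CD8 cells. In CD4 cells with the WT label it ran from 0 through 61.9 to 1057, and in KO-labelled CD4 cells from 0 through 133.1 to 807. It was detected in 66.7% (54.6 to 77.3), 75% (64.1 to 84.01), 64.6% (52.99 to 75) and 72.6% (60.9 to 82.4) of the same plates. All 4 intervals overlap, and each KO-labelled plate lay above its WT partner. Among positive cells the median was 113.7, 177.2, 231.9 and 210 FPKM in that order. The wells held 137.3, 333.8, 240.6 and 334.3 FPKM, with WT CD8 again the lowest.

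Icos separated the lineages. Its FPKM ran from 0 through a median of 10.04 to 982 in WT CD8 cells, and from 0 through 37.2 to 1757 in KO-labelled CD8 cells. In CD4 cells with the WT label it ran from 0 through 257.6 to 2385, and in KO-labelled CD4 cells from 0 through 536 to 3506. It was detected in 51.4% (39.3 to 63.4), 56.3% (44.7 to 67.3), 83.5% (73.5 to 90.9) and 86.3% (76.2 to 93.2) of cells in the same order. The intervals overlapped within a lineage and not between lineages. Among positive cells the median was 130, 175.01, 389 and 792 FPKM, and the wells held 101.25, 327.8, 922 and 1352 FPKM, so the share, the level per positive cell and the wells all placed the 4 plates in the same order.

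**Figure D1:**
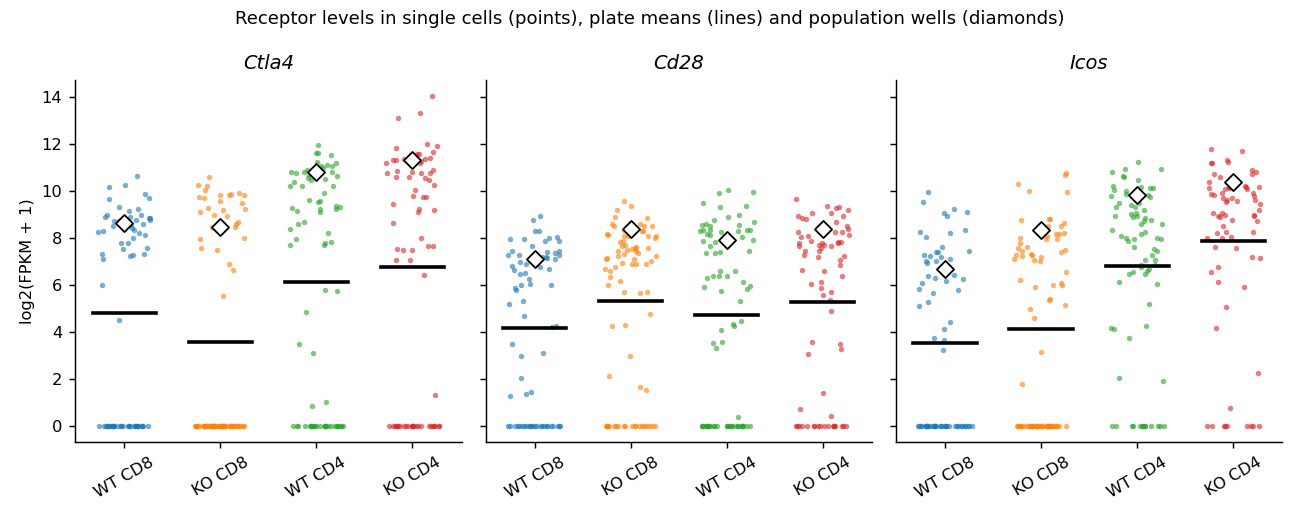
Level of Ctla4, Cd28 and Icos in each kept cell (points; vertical axis, log2 of FPKM + 1) by plate, with the plate mean as a black line and the population well as a white diamond. Ctla4 and Icos have higher wells on both CD4 plates than on both CD8 plates, while Cd28 has its lowest well, 137.3 FPKM, on the WT CD8 plate.

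Wells with under 1000 genes show what nearly empty libraries gave. Ctla4 was detected in 0 of 22 left-out WT CD8 cells and 0 of 14 left-out KO-labelled CD8 cells, which allows shares of up to 13.6% and 21.4%. It was detected in 1 of 15 left-out WT CD4 cells and 1 of 21 left-out KO-labelled CD4 cells. Cd28 and Icos were each detected in at most 1 left-out cell of a plate. Detection in kept cells was thus well above that in sparse wells.

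Differences between groups are given as percentage points of detection and as differences in mean log2(FPKM + 1), which depend on the added 1 at low levels. The second is set beside all genes detected in at least 20% of the cells of 1 of the 2 groups, and a difference of at least 1 is counted. The comparisons share plates, so they are not independent of each other.

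Between lineages, Icos and Ctla4 were higher in CD4 cells and Cd28 was close to even. On the WT plates Icos differed by 3.30 (log2, CD4 minus CD8) and 32.2 percentage points, Ctla4 by 1.32 and 8.88 points, and Cd28 by 0.56 and -2.11 points. On the KO-labelled plates Icos differed by 3.75 and 30.1 points, Ctla4 by 3.21 and 27.1 points, and Cd28 by -0.02 and -2.40 points. In each genotype, 2 of 3 members were higher by at least 1, against 2.16% of 6524 genes on the WT plates and 4.63% of 5286 genes on the KO-labelled plates. No member was lower by that much, against 37.2% and 11.1% of genes. The medians of all these genes were -0.76 and -0.21.

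Ctla4 was detected no more often in CD4 than in CD8 cells once Foxp3-detected cells were left out, while Icos still was. With Foxp3-detected cells left out of the CD4 plates, the Ctla4 difference turned to -6.94 points on the WT plates and to -1.29 points on the KO-labelled plates. Icos kept 27.5 and 17.9 points. The CD4 cells that remained had medians of 1891 (WT) and 2123 genes (KO-labelled), against 3167.5 and 2507.5 in CD8 cells. These values were not weighted on genes detected, so they do not show where the Ctla4 difference lies at like yield. With cells weighted to the same numbers of detected genes, the WT Ctla4 difference was 28.7 points, in place of 8.88.

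Foxp3, the transcription factor that defines regulatory T cells, reached detection in 27 of 79 CD4 cells of the WT plate and in 42 of 73 with the KO label. Among CD8 cells it was detected in 0 of 72 cells of the WT plate, which allows up to 4.17%, and in 1 of 80 of the other. Other regulatory T genes followed the split: at least 3 of Foxp3, Il2ra, Ikzf2, Ikzf4, Nrp1 and Tnfrsf18 were detected in 96.3% and 100% of Foxp3-detected cells, against 3.85% and 16.1% of the others. Foxp3 itself is 1 of these 6 genes. The median number of detected genes was 2404 against 1891 on the WT plate and 2267.5 against 2123 on the KO-labelled plate.

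Ctla4 followed Foxp3 on both CD4 plates. In WT cells it was detected in 96.3% of Foxp3-detected (81.03 to 99.9) and 50% of Foxp3-undetected cells (35.8 to 64.2). In KO-labelled cells the shares were 88.1% (74.4 to 96.02) and 38.7% (21.9 to 57.8). Neither pair of intervals overlaps. The log2 differences of 6.09 and 5.76 were larger than those of 99.8% and 99.9% of genes compared on each plate.

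The level per positive cell differed as well. Ctla4-positive cells with Foxp3 had medians of 1745 FPKM (WT) and 1869 FPKM (KO-labelled), and those without Foxp3 had 395 and 476 FPKM. The latter values are near the 391 and 566 FPKM of Ctla4-positive CD8 cells. Weighted on genes detected, the differences in share were 46.3 and 45.9 points, in place of 46.3 and 49.4, so the pattern was nearly as large among cells with like numbers of genes.

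Icos was higher with Foxp3 by less, and Cd28 was not. Icos was detected in 92.6% (75.7 to 99.1) against 78.8% (65.3 to 88.9) of WT cells and in 95.2% (83.8 to 99.4) against 74.2% (55.4 to 88.1) of KO-labelled cells, with log2 differences of 1.16 and 2.65. Cd28 was detected in 55.6% (35.3 to 74.5) against 69.2% (54.9 to 81.3) of WT cells, a log2 difference of -1.08, and in 73.8% (57.96 to 86.1) against 70.97% (51.96 to 85.8) of KO-labelled cells, a difference of 0.09. The intervals of Cd28 overlap on both plates. Of the 3 members, 2 were higher by at least 1 on each plate, against 40.4% of 5310 genes in WT and 10.5% of 4867 genes in KO-labelled cells. The 1 member lower by that much in WT, Cd28, stands against 2.52% of genes, and the 0 members lower in KO-labelled cells against 13%. The medians of all genes were 0.79 and -0.07, so the WT value of Icos was close to the general shift. Cells with at least 3 cell cycle genes were 22.2% of Foxp3-detected and 0% of other WT cells, and 9.52% and 3.23% of KO-labelled cells. Without them Ctla4 differed by 45.2 and 50.2 points. At least 3 dendritic and macrophage genes were detected in 0 Foxp3-detected and 3 other WT cells, and in 1 and 4 KO-labelled cells, and without cells with such genes or melanoma genes Ctla4 differed by 45.3 and 43.4 points.

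**Figure D2:**
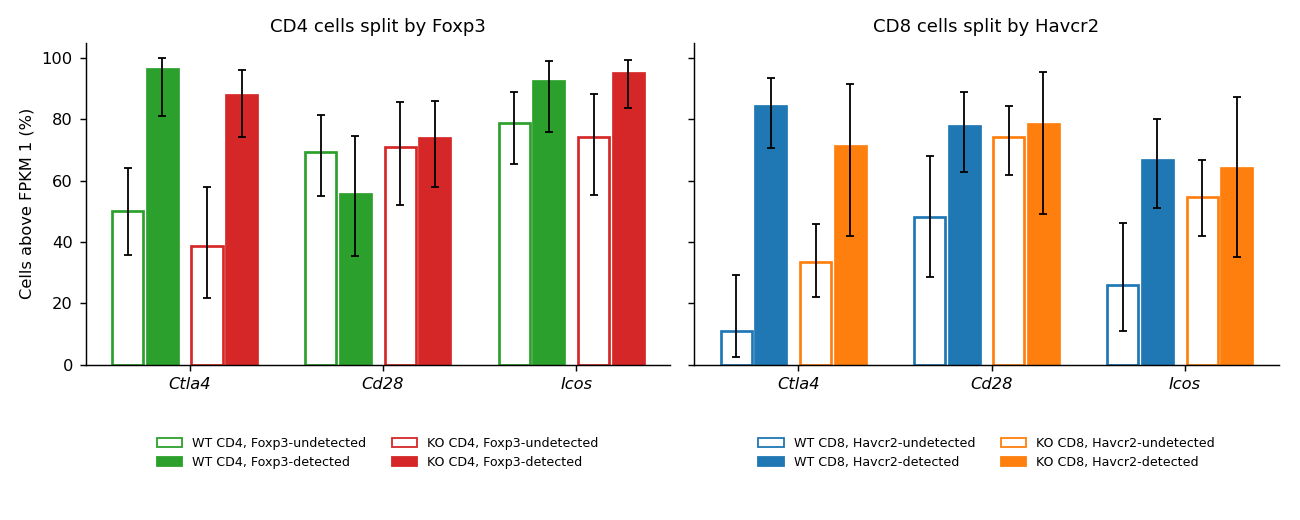
Detection of each receptor above 1 FPKM (percent of kept cells, vertical axis), in CD4 cells split by Foxp3 (left) and CD8 cells split by Havcr2 (right), with Clopper-Pearson 95% intervals as error bars. Ctla4 shows the widest steps, from 50% to 96.3% in WT CD4 and from 11.1% to 84.4% in WT CD8 cells.

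Havcr2, which encodes TIM-3, an inhibitory receptor of terminally exhausted CD8 T cells, reached detection in 45 of 72 CD8 cells of the WT plate and in 14 of 80 with the KO label. In CD4 cells it was detected in 13.9% and 20.5%. The split also divided the cells by yield: the median number of detected genes was 4191 in Havcr2-detected against 2248 in other WT cells, and 3540 against 2416.5 in KO-labelled cells. At least 3 cell cycle genes were detected in 60% against 7.41% on the WT plate and in 28.6% against 1.52% on the other. Most genes were also higher in Havcr2-detected cells, with medians of 1.504 and 0.86 over all genes compared.

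Ctla4 stood above that shift on both CD8 plates. It was detected in 84.4% of Havcr2-detected (70.5 to 93.5) and 11.1% of Havcr2-undetected WT cells (2.35 to 29.2), a log2 difference of 6.39. In KO-labelled cells the shares were 71.4% (41.9 to 91.6) and 33.3% (22.2 to 46.01), a difference of 3.26. The WT intervals lie far apart, and the KO-labelled ones, with 14 Havcr2-detected cells, overlap. The 2 differences were larger than those of 99.8% and 97.1% of genes on their plates.

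Cd28 and Icos stood less far from the bulk of genes, and in KO-labelled cells both lay below its median. In WT cells Cd28 was detected in 77.8% against 48.1% and Icos in 66.7% against 25.9%, with log2 differences of 2.87 and 2.62. In KO-labelled cells Cd28 was detected in 78.6% against 74.2% and Icos in 64.3% against 54.5%, with 0.09 and 0.59. By at least 1, 3 of 3 members were higher in WT cells, against 66.2% of 7673 genes, and 1 of 3 in KO-labelled cells, against 44.3% of 6833 genes. No member was lower by that much, against 1.46% and 2.88% of genes.

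Weighting on genes detected changed the Havcr2 values most. It used the weight of 11 cells a group, since few cells with and without Havcr2 had like numbers of genes. Ctla4 then differed by 36.2 points in WT cells (56.8% against 20.7%) and by -2.34 points in KO-labelled cells (70.5% against 72.8%). The WT differences of Cd28 and Icos shrank to 5.07 and 2.41 points. Without cycling cells the Ctla4 differences were 71.3 and 27.7 points. At like yield, the Ctla4 difference with Havcr2 was therefore smaller in WT cells and near 0 in KO-labelled cells, in few cells each.

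**Figure D3:**
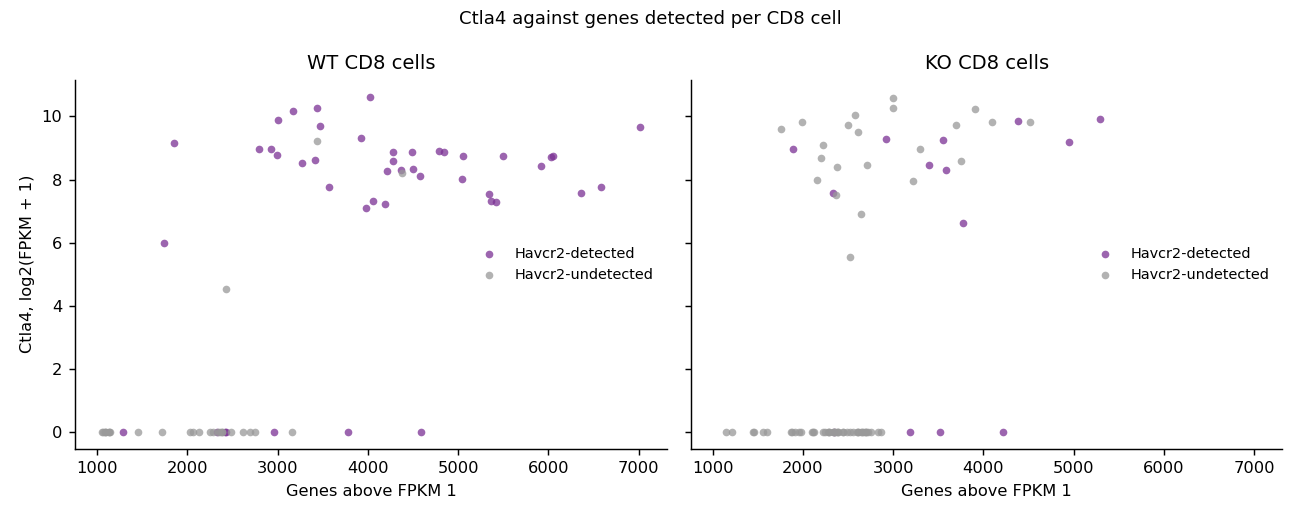
Ctla4 level (vertical axis, log2 of FPKM + 1) against genes detected (horizontal axis) in each kept CD8 cell, coloured by Havcr2 detection, for the WT (left) and KO-labelled (right) plates. Of the WT cells without Havcr2, 3 of 27 had Ctla4, and of the KO-labelled cells without Havcr2, 22 of 66.

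Between the genotype labels, CD8 cells differed in opposite directions for the inhibitory and the co-stimulatory genes. Ctla4 was lower on the KO-labelled plate by 16.9 percentage points (log2 difference -1.25), while Cd28 was higher by 8.33 points (1.16) and Icos by 4.86 points (0.62). By at least 1, 1 of 3 members was higher, against 3.00% of 6599 genes, and 1 of 3 was lower, against 19.5%. The median of all genes was -0.46. Ctla4 intervals overlapped between the plates, as did those of Cd28 and Icos. The wells differed by -0.15 for Ctla4, 1.28 for Cd28 and 1.69 for Icos.

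The direction of Ctla4 in CD8 cells depended on which cells were compared, and that of Cd28 did not. Weighted on genes detected, the Ctla4 shares were 44.9% (KO-labelled) and 43.9% (WT), a difference of 1.05 points. Without cells with at least 3 cell cycle genes the difference was -5.86 points. Among Havcr2-undetected cells, at medians of 2416.5 and 2248 genes, Ctla4 was detected in 33.3% of KO-labelled against 11.1% of WT cells, a log2 difference of 2.17. Cd28 was detected there in 74.2% (61.99 to 84.2) against 48.1% (28.7 to 68.1) and Icos in 54.5% (41.8 to 66.9) against 25.9% (11.1 to 46.3). All 3 members were higher by at least 1 in these cells, against 33% of 4798 genes, and 0 were lower, against 2.40%. The median of all genes there was 0.62. Cd8a was detected in 89.4% of this KO-labelled class and in 66.7% of the WT class. At least 3 of 4 T cell genes were detected in 87.9% and 63% of them. The classes were thus not alike in yield, though their medians of genes were close. Among Havcr2-detected cells the differences were -0.96 for Ctla4, 0.16 for Cd28 and 0.12 for Icos, so 0 of 3 members passed 1, against 6.78% of 7924 genes higher and 23.4% lower. These classes were compared after their values had been seen. In 7 alternatives of cells, weights or threshold, Cd28 was higher on the KO-labelled plate by 5.73 to 26.1 points. The Havcr2-detected cells alone are not among these 7, and there Cd28 was nearly even, at 78.6% (KO-labelled) against 77.8% (WT), or 0.79 points.

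In CD4 cells the genotype differences of detection were small. Ctla4 differed by 1.30 percentage points (log2 difference 0.65), Cd28 by 8.05 points (0.57) and Icos by 2.76 points (1.07). The intervals of each gene overlap between the plates. Icos, the 1 of 3 members higher by at least 1, stands against 8.75% of 4687 genes, and the 0 of 3 members lower against 1.51%, with a median of all genes of 0.16. The wells differed by 0.50, 0.47 and 0.55.

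The KO-labelled CD4 plate held more Foxp3-detected cells, and within the Foxp3 classes the members differed otherwise. Among Foxp3-detected cells Ctla4 differed by -0.92, Cd28 by 1.32 and Icos by 1.44 (log2, KO-labelled minus WT), against a median of -0.39 over 5446 genes. Of the 3 members 2 were higher by at least 1 there, against 3.56% of genes, and 0 lower, against 21.0%. Among Foxp3-undetected cells the differences were -0.59, 0.15 and -0.05, against a median of 0.51 over 4415 genes, with 0 of 3 members past 1 (27.6% of genes higher and 2.11% lower). In mean log2 level Ctla4 was thus lower on the KO-labelled plate within both classes and higher over all cells, but the level per positive cell was not lower. Positive Foxp3-detected cells had medians of 1869 (KO-labelled) and 1745 FPKM (WT), and positive Foxp3-undetected cells 476 and 395 FPKM. The mean over all Foxp3-detected cells was 2357 FPKM with the KO label, or 2004 without its highest cell, and 1651 FPKM in WT. In mean log2 level Icos was higher with the KO label in Foxp3-detected cells and nearly even in the others. The median level of Icos-positive cells was 842 FPKM (KO-labelled) and 258.4 FPKM (WT) with Foxp3. Without Foxp3 it was 536 and 392 FPKM, also higher with the KO label.

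**Figure D4:**
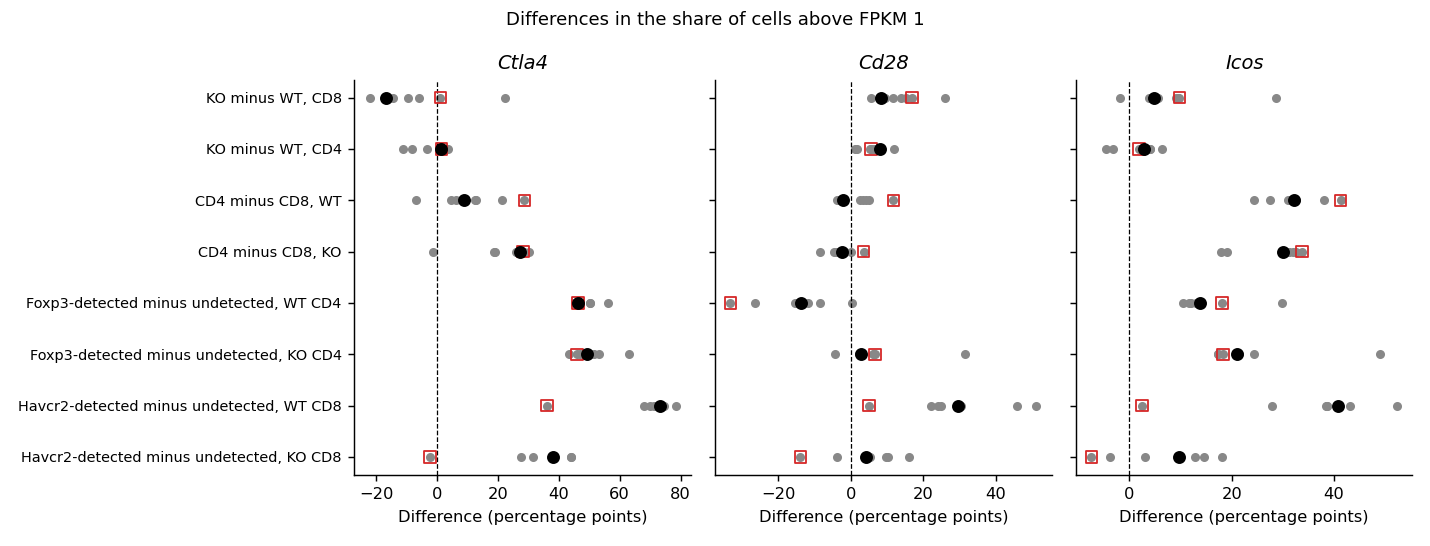
Differences in the share of cells above 1 FPKM (horizontal axis, percentage points) for 8 comparisons of each receptor. Black points are the values for all kept cells, grey points the alternatives and red squares the alternative weighted on genes detected, which places the Ctla4 difference between CD8 plates at 1.05 in place of -16.9.

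Single cells often held several of the receptors. On the CD8 plates all 3 were detected in 36.1% of WT (25.1 to 48.3) and 26.3% of KO-labelled cells (17.04 to 37.3). On the CD4 plates the shares were 32.9% (WT, 22.7 to 44.4) and 47.9% (KO label, 36.1 to 59.96). None was detected in 23.6%, 12.5%, 3.80% and 5.48% of cells in the same order. CD4 cells without any of the 3 were thus rare, and CD8 cells without any were more frequent, above all on the WT plate. The WT CD8 cells with none had a median of 2062 genes and those with all 3 a median of 4236.5.

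**Figure D5:**
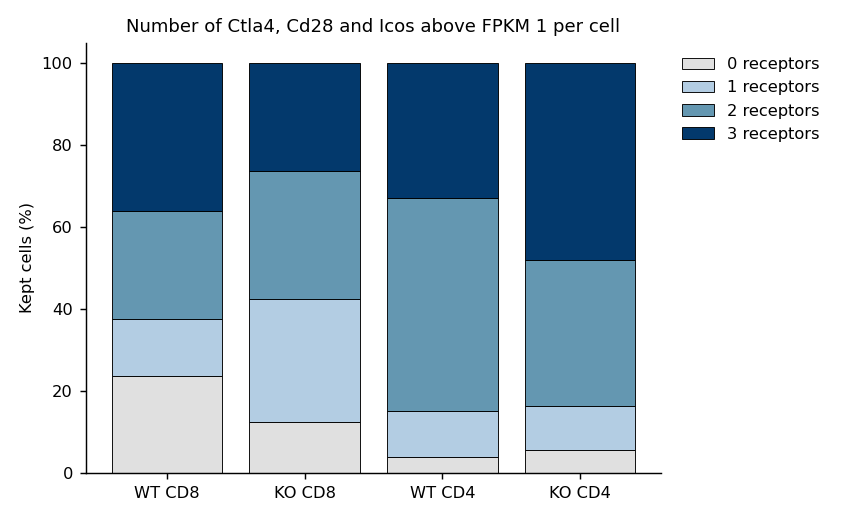
Cells by number of receptors: percent of kept cells (vertical axis) that held 0, 1, 2 or 3 of Ctla4, Cd28 and Icos above 1 FPKM, by plate. Cells with 0 receptors make up 23.6% of WT CD8 and 3.80% of WT CD4 cells.

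Ctla4 and Icos tended to be found in the same CD8 cells. Icos was detected in 75.6% of Ctla4-detected (59.7 to 87.6) and 19.4% of Ctla4-undetected WT CD8 cells (7.45 to 37.5). With the KO label it was detected in 78.1% (60.03 to 90.7) and 41.7% (27.6 to 56.8). Neither pair of intervals overlaps, but Ctla4-detected cells also had more genes, with medians of 4282 against 2290 and 2957.5 against 2365.5. In WT CD4 cells the shares of Icos were 84.6% and 81.5%, close to even, and in KO-labelled CD4 cells 93.9% and 70.8%. Cd28 in CD4 cells showed little relation to Ctla4, at 65.4% against 62.96% in WT and 75.5% against 66.7% in KO-labelled cells.

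The genes most like each receptor were found by Pearson correlation of log2(FPKM + 1) after subtracting each plate's mean, over the kept cells of both plates of a lineage. The cells share plates, and yield enters every value, so these are descriptions. In CD4 cells Ctla4 was most like Foxp3 (r = 0.58), the inhibitory receptor gene Tigit (0.50), the transcription factor gene Ikzf2 (0.49), Tnfrsf18, which encodes GITR (0.49), and Tnfrsf9, which encodes 4-1BB (0.47). Its r with the number of detected genes was 0.16. In CD8 cells Ctla4 was most like Pdcd1, which encodes PD-1 (0.74), followed by Dut (0.62), Lag3 (0.62), Samsn1 (0.61) and Tigit (0.61). There its r with the number of detected genes was 0.59 and the median r over all genes 0.22. Taken by plate, the r with these 5 genes was 0.70 to 0.83 in WT and 0.44 to 0.66 in KO-labelled CD8 cells.

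Icos and Cd28 had weaker partners. Icos in CD8 cells was most like Ctla4 itself (0.47), then Camk4 and Pdcd1 (0.40 each), and in CD4 cells like Dgat1 (0.34), Tnfrsf18 (0.33) and Tigit (0.32). The highest r of Cd28 was 0.30 in CD4 cells, with Bbx, and 0.46 in CD8 cells, with Idh3a, where its r with the number of detected genes was 0.41. Taken by plate, its r with Idh3a was 0.63 (WT) and 0.30 (KO-labelled). The r of Ctla4 with Cd28 was 0.03 in CD4 and 0.36 in CD8 cells. The 2 neighbours on the chromosome thus showed almost no correlation across CD4 cells.

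The ligands, which antigen-presenting cells carry, were detected in few of these cells. Cd86 passed 1 FPKM in 22.2% of WT CD8 cells and in 7.50% to 8.22% of the other plates. Cd80 was detected in 2.50% to 12.5%, and Icosl, the ligand of ICOS, in 0 of 73 KO-labelled CD4 cells, which allows up to 4.11%, and in at most 7.50% elsewhere. In WT CD8 cells Cd86 was detected in 35.6% of Havcr2-detected and 0% of 27 other cells, which allows up to 11.1%. At least 3 of 11 dendritic and macrophage genes were detected in 11.1% and 7.41% of these classes, with Cd209a, Csf1r and Lyz2 undetected in both classes. The summed level of these 11 genes ran from 0 to 982 and from 0 to 3459 FPKM. Their part in the Cd86 values was not tested. With Havcr2 in KO-labelled cells the shares of Cd86 were 21.4% and 4.55%.

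Of the other family receptors, Pdcd1 differed with Havcr2 as Ctla4 did, and Btla stayed within 1 in each comparison named here. Pdcd1 was lower in KO-labelled CD8 cells (log2 difference -4.08), where 14.3% of 9081 genes were lower by at least 1. Btla, an inhibitory receptor that binds HVEM, differed by 0.39. In CD4 cells the differences were 0.40 and -0.24. With Havcr2, Pdcd1 differed by 8.29 in WT and 5.06 in KO-labelled cells, and Btla by -0.29 and 0.56. Of all genes, 56.3% (WT) and 33% (KO-labelled) were higher by at least 1 there, with medians of 1.22 and 0.52.

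Some of the kinases and adaptors that work below CD28 and ICOS were lower in CD4 than in CD8 cells. Of 15 listed genes, all measured, 6 were lower by at least 1 in each genotype and 0 were higher, against 27% (WT) and 6.54% (KO-labelled) of 9081 genes lower. The list medians were -0.75 and -0.75, beside -0.53 and -0.12 for all genes. On the WT plates the largest differences were -1.45 for Tbk1, a kinase that binds ICOS, -1.32 for the exchange factor gene Vav1 and -1.18 for Bcl10. On the KO-labelled plates the differences included -1.62 for Prkcq, the kinase that links CD28 to NF-kB, and -1.25 for Pik3cd. Others differed the other way by less than 1, among them Lck in WT (0.42) and Tbk1 in KO-labelled cells (0.59). Between genotypes 1 was lower in CD8 cells (Tbk1, -1.11) and 1 higher in CD4 cells (Bcl10, 1.05), against 14.3% and 4.56% of genes, and 0 were lower in CD4 cells, against 0.782%.

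With Havcr2, 10 of the 15 were higher in WT and 5 in KO-labelled CD8 cells, against 56.3% and 33% of genes, and 0 and 1 were lower, against 1.30% and 2.48%. Lck, the kinase that starts T cell receptor signalling, had the largest WT difference at 4.60, and Bcl10 the largest in KO-labelled cells at 2.90. With Foxp3, 2 were higher and 3 lower in WT cells, with -1.79 for Pik3cd, 1.73 for the adaptor gene Grb2 and -1.44 for Prkcq, against 24.6% of genes higher and 1.57% lower. In KO-labelled CD4 cells 1 was higher, Malt1 (2.24), and 1 lower, Vav1 (-1.43), against 5.99% and 7.29% of genes.

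Genes of CTLA-4 trafficking split by lineage and label. Trat1, which encodes an adaptor that carries CTLA-4 to the surface, was higher in CD4 cells by 1.36 (WT) and 1.55 (KO-labelled), the 1 of 6 members higher by at least 1, against 1.65% and 2.85% of 9081 genes. On the WT plates Def6 (-2.13) and Ap2m1 (-1.69), an adaptor subunit of CTLA-4 internalisation, were lower, against 27% of genes. Between the CD8 plates 3 of 6 were lower in KO-labelled cells, against 14.3% of genes, with differences of -1.60 for Ap2m1, -1.02 for Ap1m1 and -1.01 for Def6. With Foxp3, WT cells had 3 of 6 higher, Ap1m1 (2.37), Def6 (1.97) and Rab11a (1.72), against 24.6% of genes, and Trat1 lower (-1.22), against 1.57%. KO-labelled cells had 0 of 6 past 1 in either direction, against 5.99% higher and 7.29% lower. The RNA-binding repressors Rc3h1, Rc3h2 and Zc3h12a, which destabilise Icos and related transcripts, had 0 of 3 past 1 in all 8 comparisons, where 1.65% to 56.3% of genes were higher and 0.782% to 27% lower by that much.

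Of 10 genes known to be induced by co-stimulation, 7 were measured, and Il2, Il4 and Il21 were too rarely detected. Between the CD8 plates 0 of 7 passed 1 in either direction, against 2.25% of genes higher and 14.3% lower. Between the CD4 plates 3 were higher in KO-labelled cells, Il2ra (2.34), Tnf (1.85) and Maf (1.10), against 4.56% of genes. With Foxp3, 4 of 7 were higher and 0 lower by at least 1 in WT cells, against 24.6% and 1.57% of genes. In KO-labelled CD4 cells 3 were higher and 2 lower, against 5.99% and 7.29% of genes. In WT and KO-labelled cells Il2ra differed by 4.71 and 4.62, and Maf by 2.99 and 2.29. Il10, an anti-inflammatory cytokine gene, differed by 3.17 and 2.34. Il2ra is also among the regulatory T genes above. With Havcr2, 3 of 7 were higher and 0 lower by at least 1 on each CD8 plate. Of all genes, 56.3% (WT) and 33% (KO-labelled) were higher, and 1.30% and 2.48% lower. Ifng differed by 2.93 and 4.90 and the survival gene Bcl2l1 by 1.79 and 1.30, beside medians of 1.22 and 0.52 for all genes.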

How the data were processed

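T cells of B16F10 tumours were profiled in 380 libraries (4 plates of 94 cells and 4 population wells). The authors deposited FPKM scaled between libraries by TMM factors, per the labels. RSEM, Bowtie and mm10 are named in the submitters' processing notes, and versions are not given in the sources used here. Every column matched 1 sample title. The values hold no read totals, so yield was described by genes above 1 FPKM, and rescaling by TMM moves that count. Genes were taken at gene level, without isoforms.

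Cells with at least 1000 genes above 1 FPKM were kept. Shares carry exact Clopper-Pearson 95% intervals, and a share of 0 the limit that 3 cells set. Plates are single samples, so no p-value was derived and replicates were absent. Members and lists were chosen with earlier results of these data known. At most 3 genes per list and comparison were named, those with the largest difference. They were taken among members detected in 10% of cells of 1 plate. Between lineages, Lck (WT) and Tbk1 (KO-labelled) were named besides, as kinases that differed the other way. Per receptor and lineage, at most 5 genes of highest r were named. One named result is not reported here. Alternatives were another detection threshold, pseudocounts of 0.1 and 10 on the log2 scale in place of 1, log2 ratios of mean FPKM, another threshold for the Foxp3 and Havcr2 splits, other cell filters, and weighting to equal numbers of genes (bins of 500). Differences were tested on simulated data: 8-fold changes kept their direction for 94.5% of altered genes, among 5617 tested, in CD8 cells and 93.5% among 4004 in CD4 cells. The RefSeq promoter table was matched by symbol for 1 of 3 members. Python 3.11.15, numpy 2.4.6, scipy 1.17.1 and pandas 2.3.3 were used.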

Additional observations from a re-analysis of the deposited data

Results flagged for a closer look

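Ctla4 differed between genotype labels in opposite directions in the lineages, with log2 differences (KO-labelled minus WT) of -1.25 in CD8 cells and 0.65 in CD4 cells. The wells had the same signs, at -0.15 and 0.50. The difference between lineages was not tested, since each group is 1 plate, and neither sign held under every alternative. The CD8 value turned when cells were weighted on genes detected (0.37) and without Havcr2-detected cells (2.17). The CD4 value turned among cells with at least 2000 genes (-0.73) and without Foxp3-detected cells (-0.59).

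Cd28 differed between Foxp3-detected and Foxp3-undetected cells by -1.08 in WT CD4 and by 0.087 in KO-labelled CD4 cells. This difference between plates was also not tested, and the intervals of the Cd28 shares overlap on both plates. Over the alternatives the WT value ran from -2.35 to -0.077 and the KO-labelled value from -0.093 to 2.20, and with no filter on cells the WT difference in share was 0.33 points.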

How the results depend on the processing

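Of the alternative values for the differences in detection share, 11 moved outside the Newcombe 95% interval of the value reported, 4 turned a difference whose interval excluded 0, and the others stayed within it. Counted apart from these 4, 20 had the opposite sign of a difference whose interval held 0. The cause was not tested unless the construction names it. Weighted on genes detected, Ctla4 was 1.05 points between the CD8 plates (log2 0.37), 28.7 between the WT lineages, and 36.2 (WT) and -2.34 (KO-labelled, log2 -0.80) with Havcr2, where Cd28 and Icos were 5.07 and 2.41 in WT cells. Without Havcr2-detected cells the CD8 genotype differences were 22.2 for Ctla4 (log2 2.17), 26.1 for Cd28 and 28.6 for Icos. Without Foxp3-detected cells the lineage difference of Ctla4 was -6.94 in WT (log2 -0.76) and -1.29 in KO-labelled cells (log2 -0.10), and Icos between the CD4 plates was -0.053 on the log2 scale. With no filter on cells, where sparse wells join the undetected class, Icos with Foxp3 was 29.9 (WT) and 49.1 (KO-labelled), Cd28 with Foxp3 31.5 (KO-labelled) and Cd28 with Havcr2 51.2 (WT). On the log2 scale, 76 alternatives moved by more than 1.5-fold, and 6, those given above, turned a difference of at least 1. Counted apart from these 6, 14 had the opposite sign of a smaller difference, among them Ctla4 between the CD4 plates (down to -0.73) and, with Havcr2 in KO-labelled cells, Cd28 (down to -1.39) and Icos (down to -0.94). The alternatives that left out Foxp3-detected, Havcr2-detected or marker-bearing cells were chosen after seeing the data. No paired analysis was possible because each plate is a single sample. Read depth per cell is not in the files, so an undetected gene may be below detection in that cell.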

Other observations

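Ctla4-positive cells outside the Havcr2 class were a sizeable group on the KO-labelled CD8 plate, and their other genes were looked up after their number had been seen. These 22 cells had a median of 2630 genes, against 2352 in the 44 Ctla4-undetected cells without Havcr2. Pdcd1 was detected in 59.1% (exact 95% interval 36.4 to 79.3) against 6.82% (1.43 to 18.7), and Lag3 in 50% against 11.4%. Tcf7, the gene of the transcription factor TCF-1 of naive and memory T cells, passed 1 FPKM in 77.3% against 68.2%, and Il7r, the interleukin-7 receptor chain, in 77.3% against 72.7%. Of the 22 cells, 8 held Pdcd1, Tcf7 and Il7r together, against 0 of the 44 others, which allows up to 6.82%. Pdcd1 alone was found in 3 of the 44, so this joint count largely restates the Pdcd1 difference. The 22 cells reached 4516 genes and the 44 others 2864. The WT plate had 3 Ctla4-positive cells without Havcr2, of which 3 had Pdcd1 and 2 had Tcf7.

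In CD4 cells without Foxp3, Ctla4-positive cells were compared with the others for the regulatory T genes listed above. Of 26 Ctla4-positive WT cells, Il2ra was detected in 7.69% and Ikzf2 in 7.69%, against 3.85% and 11.5% of 26 Ctla4-undetected cells. Ikzf4 was detected in 3.85% against 0% (which allows up to 11.5%), Nrp1 in 34.6% against 15.4% and Tnfrsf18 in 61.5% against 23.1%, and Pdcd1 in 34.6% against 3.85%. Of 12 Ctla4-positive KO-labelled cells, Il2ra was detected in 50%, Ikzf2 in 16.7%, Nrp1 in 50% and Tnfrsf18 in 83.3%. The shares of 19 others were 26.3%, 10.5%, 47.4% and 57.9% in that order. Ikzf4 was detected in 0 cells of both classes, which allows up to 25% and 15.8%. Outside the regulatory T list, Pdcd1 was detected in 33.3% against 21.1% of these KO-labelled cells. Tigit was detected in 50% against 42.3% of the WT cells and in 75% against 21.1% of the KO-labelled cells.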
